A study of Mus musculus with 38 samples.

Results

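Livers of mice that lack the insulin receptor in hepatocytes were compared with livers of receptor-floxed mice after a glucose challenge, given as dextrose feeding in one label, in 6 of the 38 samples of a series of liver expression arrays. The LIRKO group, in which the floxed Insr gene is deleted by albumin-Cre, held 3 males treated with glucose and killed 60 min later (IR.KO_GTT_667, IR.KO_GTT_690 and IR.KO_GTT_697). The IR floxed group, labelled as the control, held 3 males given the same treatment (IR.fl_GTT_659, IR.fl_GTT_691 and IR.fl_GTT_699), and whether these carry Cre is not given in the sources used here. All 6 were 11 to 12 weeks old, of mixed FVB/N-C57Bl/6 strain, and had been fasted before the glucose, overnight in one label and for 24 h in another. The members were taken by sample title. The same 2 genotypes were also measured fasted (3 LIRKO and 4 IR floxed mice) and 6 h after refeeding (4 LIRKO and 4 IR floxed mice). Glucose livers of LIRFKO mice, which lack both the receptor and Foxo1, numbered 3, not counting 1 whose treatment labels conflict. Albumin-Cre acts in hepatocytes, so the receptor of the other liver cells is left in place. Each value is a log2 intensity of 1 dye channel of a 2-colour Agilent array, as the authors deposited it, and the number of arrays limits the precision.

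In the hepatocyte, insulin binding to its receptor leads through the Irs adaptors and PI3-kinase to the kinase Akt, which phosphorylates the transcription factor FoxO1 and keeps it out of the nucleus. FoxO1 in the nucleus is known to raise genes of glucose output and insulin sensitivity, among them G6pc, Pck1, Igfbp1 and Irs2. Insulin also raises genes of lipid synthesis through SREBP-1c, while glucose itself acts on the liver partly through the factor ChREBP, encoded by Mlxipl. A glucose challenge after a fast raises both glucose and insulin in an animal with an intact pancreas, and the liver without the receptor meets the glucose without the direct insulin signal.

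The promoters of 4 genes that were higher in LIRKO livers are shown because they hold motifs of the kind named above, as 200 bases that end just before the RefSeq start site (build GRCm38.p6), 5′ to 3′ on the strand of the gene. Capitals mark the matches. In Igfbp1, G6pc and Irs2 they mark the core of the insulin response element, CAAAACA or on the other strand TGTTTTG. In Txnip they mark the FoxO core GTAAACA, which reads TGTTTAC on the other strand, and, nearer the start, the carbohydrate response element spelled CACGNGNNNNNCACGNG, a spelling added after its values were seen.
Igfbp1, chr11:7197587-7197786, + strand: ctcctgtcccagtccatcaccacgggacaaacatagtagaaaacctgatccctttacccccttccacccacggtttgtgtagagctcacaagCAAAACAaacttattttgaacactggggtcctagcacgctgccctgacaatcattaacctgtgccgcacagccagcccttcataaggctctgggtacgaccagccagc
G6pc, chr11:101367516-101367715, + strand: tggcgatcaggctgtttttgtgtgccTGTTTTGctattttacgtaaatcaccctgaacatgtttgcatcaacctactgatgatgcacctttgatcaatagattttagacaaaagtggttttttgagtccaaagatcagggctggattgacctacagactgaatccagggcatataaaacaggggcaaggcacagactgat
Irs2, chr8:11008930-11009129, - strand: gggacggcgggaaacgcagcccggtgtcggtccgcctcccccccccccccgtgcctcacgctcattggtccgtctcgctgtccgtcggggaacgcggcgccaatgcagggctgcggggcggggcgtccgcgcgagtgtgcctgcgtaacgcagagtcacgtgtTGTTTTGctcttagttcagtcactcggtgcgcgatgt
Txnip, chr3:96557757-96557956, + strand: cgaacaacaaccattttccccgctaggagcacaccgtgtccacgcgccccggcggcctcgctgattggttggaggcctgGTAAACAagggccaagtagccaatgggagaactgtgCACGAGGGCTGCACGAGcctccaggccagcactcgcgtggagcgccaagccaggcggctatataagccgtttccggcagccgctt
The matches begin 108 bases before the start in Igfbp1, 174 in G6pc and 37 in Irs2, and 121 and 85 bases before it in Txnip. No match overlaps another. Among 32851 mouse promoters of 300 bases in the same table, 6.28% held the insulin response element core on either strand, 3.65% the FoxO core and 0.0487% the carbohydrate response element. A match is a run of letters and not a measured binding site.

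The 6 libraries did not stand alike. All 23 measured pancreatic acinar genes were highest in IR.fl_GTT_659, 20 of them by over 1 log2 unit above each of the other 5 livers, and their mean log2 level was 5.75 to 5.91 in LIRKO livers, against 9.89 in IR.fl_GTT_659 and 5.94 and 6.05 in the other IR floxed livers. Carboxypeptidase Cpa1 shows it, at 5.52, 5.50 and 5.58 in LIRKO livers and 12.23, 5.64 and 5.62 in IR floxed livers. Pancreatic islet genes were level at 5.88 to 5.99 in LIRKO and 6.00 to 6.02 in IR floxed livers. IR.fl_GTT_699 had the highest value for 13 of 21 acute phase genes, with Saa1 at 15.58 against 10.94 to 12.63 in the other 5. Hepatocyte markers averaged 14.46, 14.44 and 15.09 in LIRKO livers and 15.07, 15.07 and 15.06 in IR floxed livers, and of the 10 measured, Ttr and Hnf4a were called lower (adjusted p under 0.05 in limma over all genes, which 8.3% of all genes met). The 12 Kupffer cell and macrophage genes averaged 8.63, 8.77 and 9.17 in LIRKO livers, against 7.93, 8.06 and 8.55 in IR floxed livers, with Marco, a scavenger receptor, called higher (fitted log2 difference 2.23 ± 0.51 SE). In whole liver, fewer cells of a type and less RNA per cell cannot be told apart. The part of these differences in the results was not tested, and the count over all genes is given with and without IR.fl_GTT_659, as is that of a list where it moved by 1.5 times or more. Among the fasted livers, IR.fl_Fast_486 likewise had acinar genes at a mean of 8.77, against 5.79 to 6.38 in the other 6. The dyes were not balanced: 2 LIRKO livers and 1 IR floxed liver were labelled with Cy3, and 1 LIRKO liver and 2 IR floxed livers with Cy5. IR.KO_GTT_667 and IR.fl_GTT_699 shared 1 array, of array set 187, and IR.KO_GTT_690 and IR.fl_GTT_659 lay on different arrays of set 188, with LIRKO in Cy3 and IR floxed in Cy5 both times, so a difference within a set is 1 mouse against 1 and carries the dye.

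**Figure D1:**
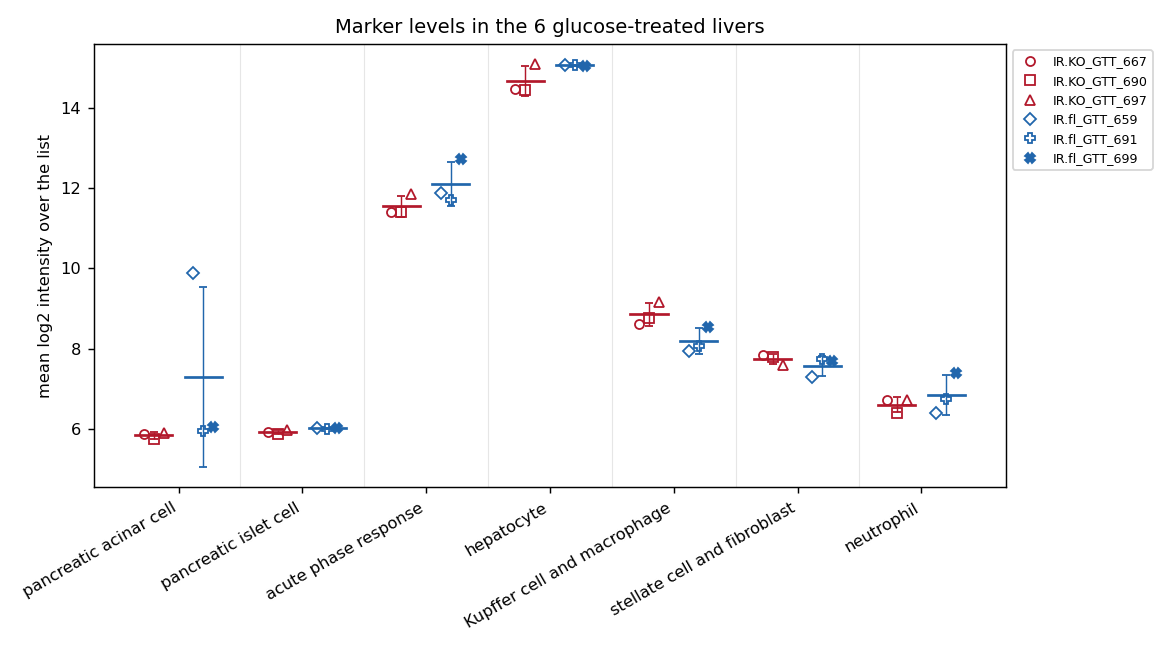
Mean log2 intensity over each marker list (y axis) in the 3 LIRKO and 3 IR floxed glucose livers, with one symbol per mouse, the group mean as a line and the SD as a bar. Acinar genes stand at 9.89 in IR.fl_GTT_659 and at 5.75 to 6.05 in the other 5 livers.

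Insr, the targeted gene, had log2 intensities of 7.18, 7.80 and 6.65 in LIRKO livers and 8.69, 8.41 and 7.94 in IR floxed livers. The groups did not overlap, and Insr was 2.28-fold lower in LIRKO livers (fitted log2 difference -1.19 ± 0.24 SE, adjusted p = 0.00216). The fitted difference takes dye and array into account and so can differ from the difference between plain means, and the adjusted p comes from limma with Benjamini-Hochberg adjustment over all 22479 genes. IR.KO_GTT_690 had the highest Insr of its group. Whether the probe lies in the deleted part of the gene is not known here, so its level may not check the deletion. The LIRFKO glucose livers had 6.33, 6.25 and 6.18.

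Across all genes, 1866 of 22479 (8.3%) had an adjusted p under 0.05 in LIRKO against IR floxed glucose livers, 985 (4.38%) higher and 881 (3.92%) lower, and 20.3% of genes had an unadjusted p under 0.05. The median log2 difference of all genes was -0.003. The 3 and 3 values did not overlap for 3544 genes (15.8%), with LIRKO higher in 8.1% of genes and lower in 7.67%, and 1548 genes (6.89%) were both called and without overlap. Without IR.fl_GTT_659 the count was 1668 (7.42%), with 796 (3.54%) higher and 872 (3.88%) lower. The fit takes its spread from all 37 samples with a group; a fit of the 6 livers alone called 5 genes, and leaving out IR.KO_GTT_690 left 912. An exact permutation test of 3 against 3 cannot go below p = 0.1, so single genes rest on the shared fit.

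Among called genes without overlap and above the median level, Tff3, a secreted trefoil peptide of epithelia, had the largest rise, with 12.89, 13.10 and 11.02 in LIRKO livers and 6.42, 7.78 and 10.48 in IR floxed livers (3.97 ± 1.06, adjusted p = 0.0187). Its IR floxed values spread widely, and the call was lost without IR.fl_GTT_659 (adjusted p = 0.0816), IR.KO_GTT_690 or IR.fl_GTT_691. H19, an imprinted non-coding RNA of fetal liver, followed with 10.78, 11.28 and 8.47 in LIRKO livers and 5.45, 5.41 and 7.30 in IR floxed livers, 2 of them near the low end of the scale (3.93 ± 0.74, adjusted p = 0.0012). IR.KO_GTT_697 was the lowest of its group in both genes, and IR.fl_GTT_699 the highest of its own. Cyp2b13, a cytochrome P450 that female mouse livers express more, stood at 8.35, 9.03 and 8.85 in LIRKO livers and 5.45, 5.61 and 5.55 in IR floxed livers, where it lay near the low end of the scale (3.16 ± 0.47). Lpl, the lipase of circulating lipoproteins that adult liver normally keeps low, had 10.64, 10.84 and 10.08 in LIRKO livers and 7.27, 7.40 and 7.95 in IR floxed livers (2.82 ± 0.44). Igdcc4, Tuba8, Adamts14, Serpinb1a, the tetraspanin Cd63 and Ifi27l2b rose by 2.55 to 3.04. H19, Cyp2b13, Lpl, Igdcc4, Tuba8, Adamts14, Cd63 and Ifi27l2b kept the call whichever 1 of the 6 mice was left out, while Serpinb1a lost it without IR.KO_GTT_667 (adjusted p = 0.057) or IR.fl_GTT_699.

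Among the falls, Ugt2a3, a glucuronosyltransferase, had 9.26, 8.21 and 9.17 in LIRKO livers and 11.82, 11.66 and 11.98 in IR floxed livers (-3.0 ± 0.31, adjusted p = 9.71e-07). Slc10a2, the ileal-type bile acid transporter, had 6.46, 6.35 and 6.34 in LIRKO livers, near the low end of the scale, and 9.30, 9.46 and 8.94 in IR floxed livers (-2.86 ± 0.29). Mfsd2a, a transporter of lysophospholipids, had 8.01, 7.63 and 7.61 in LIRKO livers and 9.77, 10.57 and 11.34 in IR floxed livers (-2.85 ± 0.61). In each of these genes every LIRKO value lay more than 1 log2 unit below every IR floxed value. The other large falls were Serpina4-ps1, Elovl3, Cyp4a12a, Myom2, Acnat2, Cyp4a12b, Scd1, Upp2 and a feature that the array annotation names Trav7d-2, a T cell receptor segment, between -3.36 and -2.70. Elovl3 lost its call without IR.fl_GTT_659 (adjusted p = 0.0615), IR.KO_GTT_690, IR.fl_GTT_691 or IR.KO_GTT_697, Serpina4-ps1 without IR.KO_GTT_690 or IR.fl_GTT_691, and Upp2 without IR.fl_GTT_699.

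Of 19 measured members of the insulin signalling list, 1 rose and 2 fell, 1 of them the targeted Insr, and 16 did not pass the test. Over all genes, 4.38% were called higher and 3.92% lower, and the list's median log2 difference was -0.02. The member that rose was Irs2, the adaptor between receptor and PI3-kinase, with 12.57, 12.86 and 12.08 in LIRKO livers and 9.06, 9.97 and 10.47 in IR floxed livers (6.13-fold higher, 2.62 ± 0.30, adjusted p = 3.86e-06). All 3 LIRKO values were above all IR floxed values, and the plain differences of 1 mouse against 1, on the same mice and with dye unadjusted, were 2.10 within array set 187 and 3.80 within set 188. Pik3r1, the regulatory subunit of PI3-kinase, fell beside Insr, with 6.65, 7.41 and 6.76 in LIRKO livers and 8.63, 8.27 and 7.57 in IR floxed livers (-1.35 ± 0.23). Foxo1 mRNA had 9.56, 9.85 and 10.02 in LIRKO livers and 10.13, 10.47 and 10.91 in IR floxed livers, without overlap and without passing the test (-0.65 ± 0.47, adjusted p = 0.502).

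Of 21 known FoxO1 target genes measured, 4 rose and 2 fell, against 4.38% of all genes called higher and 3.92% lower. The others did not pass the test, and the list's median log2 difference was 0.07. G6pc, the last enzyme of glucose release, had 13.78, 14.01 and 13.20 in LIRKO livers and 11.53, 11.60 and 12.09 in IR floxed livers (4.52-fold higher, 2.18 ± 0.48, adjusted p = 0.00463). Pdk4, a kinase that turns off pyruvate dehydrogenase, had 9.60, 9.50 and 9.36 in LIRKO livers and 7.04, 7.72 and 7.68 in IR floxed livers (2.03 ± 0.35, adjusted p = 0.000474). Both groups were tight and apart in both genes, which kept the call whichever mouse was left out. Igfbp1, an IGF binding protein that insulin represses, had 16.0, 15.97 and 15.90 in LIRKO livers, at the top of the measured range, and 12.42, 14.17 and 14.92 in IR floxed livers. Because the LIRKO livers reached the top, the difference between the plain means gives only a bound, and Igfbp1 was at least 4.35-fold higher (fit 2.71 ± 0.79, adjusted p = 0.0294). The IR floxed values were spread over more than 2 log2 units, and the call was lost without IR.fl_GTT_659 (adjusted p = 0.155), IR.KO_GTT_667, IR.KO_GTT_690 or IR.fl_GTT_699. Pck1, the first committed enzyme of gluconeogenesis, did not follow: it had 14.61, 13.06 and 14.93 in LIRKO livers and 14.88, 14.93 and 15.10 in IR floxed livers (-0.72 ± 0.48, adjusted p = 0.449). The coactivator gene Ppargc1a had 9.54, 10.97 and 9.79 in LIRKO livers and 8.34, 8.40 and 10.17 in IR floxed livers (0.80 ± 0.44, adjusted p = 0.316). Insr, which is itself counted among FoxO1 targets, and Apoc3 (-0.81 ± 0.20), an inhibitor of lipoprotein clearance, were the members that fell. Over the 15 measured genes of gluconeogenesis, G6pc rose, while Pcx (-0.64 ± 0.15), pyruvate carboxylase, and Hnf4a (-0.51 ± 0.15), a hepatocyte factor whose groups overlapped, fell, and the median was -0.51; without IR.fl_GTT_659, 3 fell. Pcx lost its call without IR.KO_GTT_667, Apoc3 without IR.KO_GTT_667, IR.fl_GTT_691 or IR.fl_GTT_699 and Hnf4a without IR.KO_GTT_667, IR.KO_GTT_690, IR.fl_GTT_691 or IR.fl_GTT_699.

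**Figure D2:**
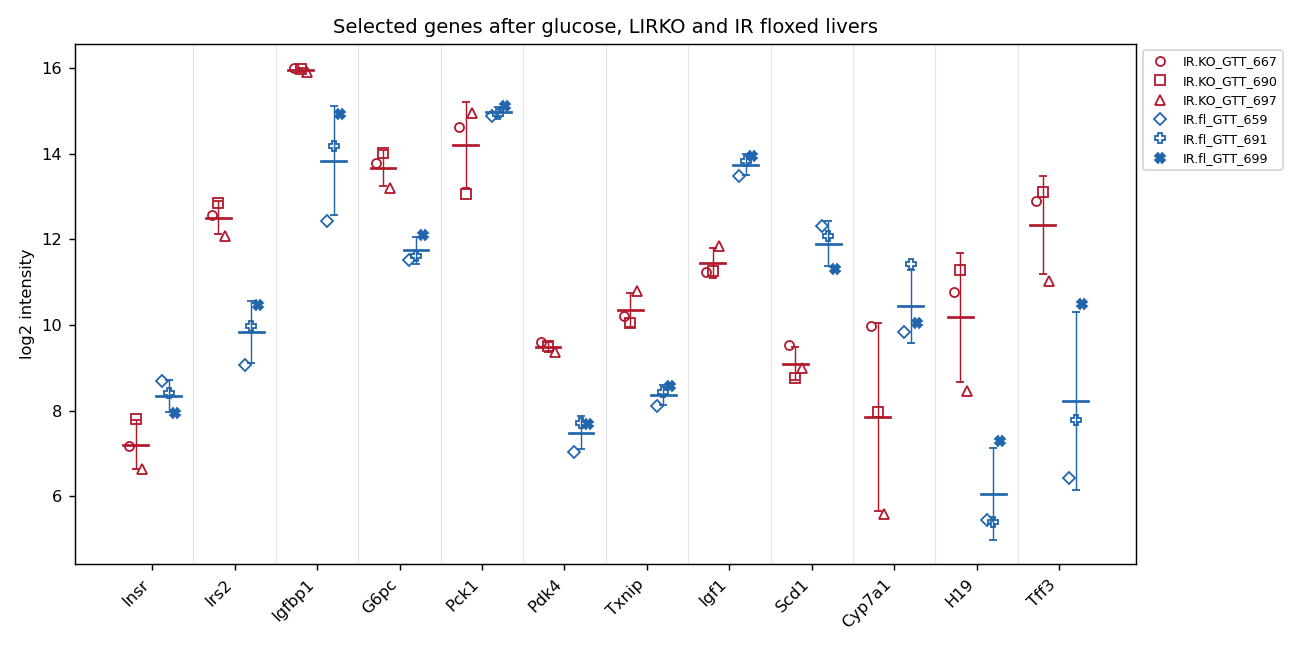
Log2 intensity (y axis) of 12 genes in the 3 LIRKO and 3 IR floxed glucose livers, with one symbol per mouse, the group mean as a line and the SD as a bar. Irs2, G6pc, Pdk4 and Txnip stand higher in every LIRKO liver, Insr, Igf1 and Scd1 lower, Igfbp1 lies at the top of the range in LIRKO livers, and Pck1 and Cyp7a1 overlap.

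Of 15 measured genes of glycolysis and glucose sensing, 4 rose and 0 fell in limma, against 4.38% of all genes called higher and 3.92% lower. At an unadjusted p under 0.05, which 20.3% of all genes met, 4 were higher and 1 lower. The list had 9 differences above 0 and 6 below, and a median of 0.11. Txnip, a thioredoxin-binding protein induced by glucose, had 10.22, 10.05 and 10.79 in LIRKO livers and 8.11, 8.43 and 8.57 in IR floxed livers (3.72-fold higher, 1.90 ± 0.24, adjusted p = 1.08e-05). Mlxipl, which encodes ChREBP, had 12.87, 13.52 and 12.48 in LIRKO livers and 12.64, 11.85 and 11.97 in IR floxed livers (0.90 ± 0.25, adjusted p = 0.021). Slc2a2, the glucose transporter GLUT2, had 11.68, 10.77 and 11.57 in LIRKO livers and 11.13, 10.13 and 8.82 in IR floxed livers (1.51 ± 0.40, adjusted p = 0.0163). Txnip was clear of overlap, while Mlxipl and Slc2a2 overlapped between the groups. Slc2a2 was -0.36 within array set 188 and 2.85 within set 187, and its call was lost without IR.fl_GTT_699 (adjusted p = 0.283) or IR.KO_GTT_667. The Mlxipl call was lost without IR.KO_GTT_667, IR.KO_GTT_690, IR.fl_GTT_691 or IR.fl_GTT_699, at adjusted p up to 0.169. The other member that rose was Pdk4. In glycogen metabolism 2 of 13 rose, Ugp2 (1.18 ± 0.19), which makes UDP-glucose, and Phka2 (0.90 ± 0.22), a subunit of phosphorylase kinase, whose call was lost without IR.KO_GTT_690, IR.fl_GTT_691 or IR.fl_GTT_699. The glucokinase gene was not analysed here.

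Of 18 measured genes of the growth hormone and IGF axis, by which the liver supplies circulating IGF-1, 2 rose, 3 fell and 13 did not pass the test. Over all genes, 4.38% were called higher and 3.92% lower. Igf1 had 11.24, 11.25 and 11.84 in LIRKO livers and 13.47, 13.83 and 13.93 in IR floxed livers (5.45-fold lower, -2.45 ± 0.29, adjusted p = 4.51e-06). Its 5 probes ran from -3.25 to -0.13 in the difference of plain means, all of the same sign. Igfals, the partner that stabilises IGF-1 in blood, and Ghr, the growth hormone receptor, fell by 1.52 and 0.94, while Igfbp2 rose, with 15.80, 14.66 and 14.88 in LIRKO livers and 13.72, 13.66 and 13.81 in IR floxed livers (1.42 ± 0.26). Without IR.fl_GTT_659, 1 rose and 1 fell, the lost calls being Igfbp1, Igfals (adjusted p = 0.0524) and Ghr (adjusted p = 0.203).

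Sex-biased genes, which in mouse liver follow the pattern of growth hormone secretion, had falls among the male-biased and some rises among the female-biased. Of 16 measured male-biased genes, 9 fell and 0 rose, against 3.92% of all genes called lower and 4.38% higher. All 16 had a difference below 0, with a median of -1.30, and 0 were higher at an unadjusted p under 0.05. Without IR.fl_GTT_659, 6 fell. Cyp4a12a, a fatty acid hydroxylase, had 9.43, 9.25 and 8.87 in LIRKO livers and 12.31, 12.37 and 11.59 in IR floxed livers (-3.0 ± 0.41, adjusted p = 4.43e-05). Complement gene C6 had 7.88, 7.64 and 7.98 in LIRKO livers and 10.28, 10.14 and 10.82 in IR floxed livers (-2.60 ± 0.42). Both stood more than 2 log2 units apart in every pair of mice. Cyp4a12b, Cyp7b1, Cyp2d9 and C8a fell with and without IR.fl_GTT_659, and Elovl3, Slco1a1 and Nudt7 did not pass without it. Of 18 female-biased genes 4 rose, Cyp2b13, the sulfotransferase Sult2a1 (2.43 ± 0.58), Cyp2b9 (1.90 ± 0.54) and Cyp3a44 (0.83 ± 0.22), and 0 fell, also at an unadjusted p under 0.05, and the list's median was 0.08. The call of Cyp2b9 was lost without IR.fl_GTT_659 (adjusted p = 0.118), IR.KO_GTT_667, IR.KO_GTT_690 or IR.KO_GTT_697, that of Sult2a1 without IR.KO_GTT_667 and that of Cyp3a44 without IR.KO_GTT_667, IR.fl_GTT_691 or IR.KO_GTT_697.

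Of 19 measured genes of amino acid catabolism and the urea cycle, which clear nitrogen when the liver uses amino acids for glucose, 9 fell, 0 rose and 10 did not pass the test, all 19 had a difference below 0, and the median was -0.90, or -1.16 without IR.fl_GTT_659 with 9 still called. Of the 19, 0 were higher at an unadjusted p under 0.05. Over all genes, 3.92% were called lower and 4.38% higher. Aass, the first enzyme of lysine breakdown, had 12.25, 11.58 and 13.18 in LIRKO livers and 13.65, 14.61 and 15.91 in IR floxed livers (-2.51 ± 0.45, adjusted p = 0.000742). Tdo2, which opens the tryptophan ring, had 11.25, 10.47 and 11.49 in LIRKO livers and 12.22, 12.39 and 13.66 in IR floxed livers (-1.87 ± 0.32, adjusted p = 0.000495). IR.fl_GTT_699, the one with high acute phase genes, was the highest liver in both. Cps1, the entry enzyme of the urea cycle, had 12.16, 11.06 and 12.59 in LIRKO livers and 12.23, 13.48 and 14.12 in IR floxed livers (-1.47 ± 0.35, adjusted p = 0.0084), with IR.fl_GTT_659 inside the LIRKO range. Arg1, which releases urea, had 13.04, 12.68 and 13.55 in LIRKO livers and 13.62, 14.76 and 14.86 in IR floxed livers (-1.47 ± 0.30), narrowly without overlap. Nags, whose product activates Cps1, Asl and Ass1 of the same cycle fell by 1.13, 1.33 and 0.83, and Cth and Prodh of cysteine and proline metabolism by 2.08 and 1.49. Otc, the remaining enzyme of the cycle, had -0.07 ± 0.47 (adjusted p = 0.963). Aass, Cth, Tdo2, Prodh, Arg1 and Nags kept the call whichever mouse was left out; Cps1 lost it without IR.fl_GTT_699 (adjusted p = 0.128), IR.KO_GTT_690 or IR.fl_GTT_691, Ass1 without the same 3 mice, and Asl without IR.fl_GTT_699.

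**Figure D3:**
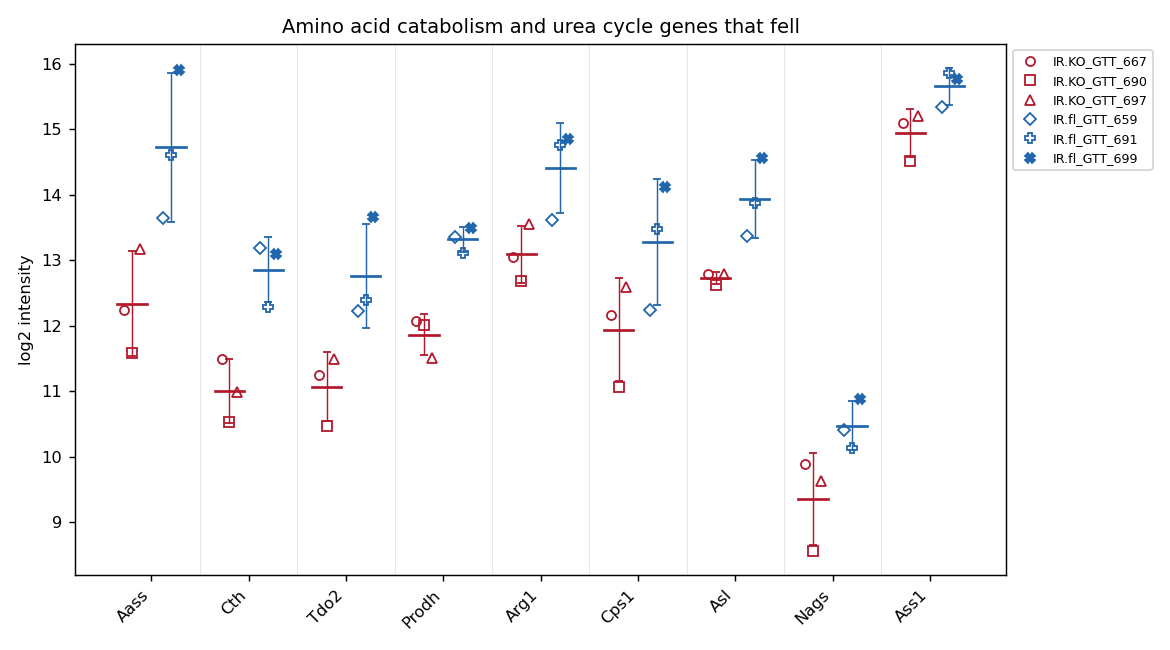
Log2 intensity (y axis) of the 9 genes of amino acid catabolism and the urea cycle that fell, in the 3 LIRKO and 3 IR floxed glucose livers, with one symbol per mouse, the group mean as a line and the SD as a bar. The groups are apart in 8 genes and overlap in Cps1, where IR.fl_GTT_659 had 12.23.

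In lipid synthesis there were 1 rise and 3 falls among 20 genes of fatty acid synthesis. Over all genes, 4.38% were called higher and 3.92% lower. Scd1, which desaturates stearate, had 9.53, 8.77 and 8.99 in LIRKO livers and 12.31, 12.07 and 11.30 in IR floxed livers (6.57-fold lower, -2.72 ± 0.53, adjusted p = 0.00156). Acss2, which makes acetyl-CoA from acetate, and Dgat2, the last step of triglyceride synthesis, fell by 1.44 and 0.92. Elovl6, a fatty acid elongase, rose by 1.46 ± 0.39, a call lost without IR.KO_GTT_667 or IR.fl_GTT_699. Srebf1 had 5.57, 5.81 and 5.87 in LIRKO livers and 6.32, 6.10 and 5.48 in IR floxed livers, near the low end of the scale (-0.14 ± 0.24, adjusted p = 0.827), and its difference turned to 0.032 without IR.fl_GTT_659. Fasn had 6.46, 6.77 and 6.57 in LIRKO livers and 6.71, 7.11 and 6.75 in IR floxed livers (-0.28 ± 0.31, adjusted p = 0.705), also low. In cholesterol synthesis 2 of 20 genes fell, Tm7sf2 (-1.39 ± 0.29) and Ebp (-0.88 ± 0.17), and 0 rose, also at an unadjusted p under 0.05. Of 17 lipid droplet and lipolysis genes 3 fell and 1 rose: the droplet coat genes Plin5 (-1.50 ± 0.34) and Plin4 (-1.29 ± 0.37), the lipase inhibitor G0s2 (-1.67 ± 0.51) and Hilpda (0.57 ± 0.17). Without IR.fl_GTT_659 the call of Plin5 held while Plin4, G0s2 and Hilpda were lost (adjusted p = 0.0645, 0.137 and 0.0856), and Plin5 was lost without IR.fl_GTT_699 (adjusted p = 0.104). Of 23 fatty acid oxidation genes Acot2, a mitochondrial thioesterase (1.95 ± 0.38), and Pdk4 rose, 0 fell, also at an unadjusted p under 0.05, and the median was 0.31; without IR.fl_GTT_659, 4 rose.

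Bile acid synthesis and transport held 4 falls and 1 rise among 17 genes, against 3.92% of all genes called lower and 4.38% higher. Cyp7a1, the rate-limiting enzyme of the classical pathway, had 9.97, 7.98 and 5.58 in LIRKO livers and 9.83, 11.41 and 10.05 in IR floxed livers (-2.67 ± 0.60, adjusted p = 0.00536). The LIRKO values spanned over 4 log2 units, IR.KO_GTT_667 lay inside the IR floxed range, and the call was lost without IR.KO_GTT_697 (adjusted p = 0.0586). Cyp7b1, of the alternative pathway, was tighter, with 9.60, 9.72 and 10.33 in LIRKO livers and 11.87, 12.01 and 12.10 in IR floxed livers (-2.21 ± 0.48, adjusted p = 0.00387). Cyp27a1, a sterol hydroxylase of the same route, fell by 1.29 and the uptake transporter Slco1a1 by 1.27, the second lost without IR.fl_GTT_659 (adjusted p = 0.109), IR.KO_GTT_690 or IR.KO_GTT_697. Abcc3, an export pump, rose by 0.97 with overlapping groups, a call lost without IR.KO_GTT_667, IR.KO_GTT_690, IR.fl_GTT_691 or IR.fl_GTT_699.

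Genes induced by glucocorticoids and the metallothioneins fell in 4 of 12 cases, against 3.92% of all genes called lower. They rose in 0 cases, also at an unadjusted p under 0.05. Mt2, a metal-binding protein, had 13.36, 13.39 and 14.60 in LIRKO livers and 15.60, 15.97 and 15.91 in IR floxed livers, near the top of the range (-2.04 ± 0.42, adjusted p = 0.00248). Fkbp5, a co-chaperone of the glucocorticoid receptor, had 10.33, 10.18 and 10.39 in LIRKO livers and 11.22, 12.19 and 12.84 in IR floxed livers (-1.77 ± 0.27, adjusted p = 0.000151). Both were lower in every LIRKO liver and kept the call whichever mouse was left out. Tsc22d3 and the zinc importer Slc39a14 fell by 1.42 and 1.24; the first lost its call without IR.fl_GTT_659 (adjusted p = 0.0623), IR.KO_GTT_667, IR.KO_GTT_697 or IR.fl_GTT_699 and the second without IR.fl_GTT_699 (adjusted p = 0.124), the mouse with high acute phase genes.

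Of 18 oncofetal and injury genes 4 rose and 0 fell, with 1 lower at an unadjusted p under 0.05; besides H19 and Tff3 these were Afp, the fetal albumin, with 7.47, 7.70 and 7.50 in LIRKO livers and 6.17, 5.84 and 6.52 in IR floxed livers (1.42 ± 0.26, adjusted p = 0.000783), and Ly6d (1.79 ± 0.47), whose call was lost without IR.KO_GTT_690, IR.fl_GTT_691 or IR.KO_GTT_697. Igf2, the gene next to H19 in the same imprinted domain, had 5.63, 5.37 and 5.40 in LIRKO livers and 5.41, 5.41 and 5.77 in IR floxed livers, at the low end of the scale. Among 16 hepatokine genes, for secreted proteins of the liver, 3 rose and 1 fell, and without IR.fl_GTT_659 1 rose and 1 fell. The shares of all genes, for this list and the oncofetal one, were 4.38% called higher and 3.92% lower. Fst, an activin antagonist, had 11.57, 11.88 and 10.47 in LIRKO livers and 7.72, 9.24 and 9.73 in IR floxed livers (2.40 ± 0.68, adjusted p = 0.0262), and the call was lost without IR.fl_GTT_659 (adjusted p = 0.125), IR.KO_GTT_667 or IR.KO_GTT_690. Enho, for adropin, rose by 1.28 ± 0.34, a call lost without IR.KO_GTT_690 or IR.fl_GTT_699. Leap2, the ghrelin receptor antagonist, had 8.65, 8.45 and 7.85 in LIRKO livers and 11.77, 11.32 and 9.39 in IR floxed livers (-2.17 ± 0.49, adjusted p = 0.00549) and kept its call.

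Among 19 chaperones of the endoplasmic reticulum 2 rose and 0 fell, near the 8.3% of all genes called in either direction. At an unadjusted p under 0.05 in limma, which 20.3% of all genes met, 10 were higher and 1 lower. The list's median was 0.72, and without IR.fl_GTT_659, 4 rose. Canx, calnexin, had 11.44, 11.60 and 11.75 in LIRKO livers and 10.77, 10.61 and 11.07 in IR floxed livers (0.72 ± 0.15, adjusted p = 0.00249). The other was Pdia6 (0.76 ± 0.22), a call lost without IR.KO_GTT_690, IR.fl_GTT_691, IR.KO_GTT_697 or IR.fl_GTT_699. Among 16 interferon response genes Usp18, Oas2 and Oasl2 rose by 0.78 to 1.34 and 0 fell, also at an unadjusted p under 0.05; without IR.fl_GTT_659 only Oas2 was called, and the call of Oas2 was lost without IR.KO_GTT_667, IR.KO_GTT_690, IR.fl_GTT_691 or IR.fl_GTT_699. Of 21 acute phase genes 1 rose and 2 fell: Il1rn (0.57 ± 0.14), Saa4 (-2.35 ± 0.44) and Crp (-1.14 ± 0.22), which all kept the call whichever mouse was left out. Saa1 had 11.67, 11.70 and 11.29 in LIRKO livers and 12.63, 10.94 and 15.58 in IR floxed livers, with IR.fl_GTT_699 far above the others (-1.85 ± 1.09, adjusted p = 0.373).

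The remaining lists are given together, and over all genes 4.38% were called higher and 3.92% lower. Among 18 lipoprotein genes 0 rose and 2 fell, Apoc3 and Lcat (-0.67 ± 0.19), with 1 higher at an unadjusted p under 0.05, 3 fell without IR.fl_GTT_659, and the Lcat call was lost without IR.KO_GTT_690, IR.fl_GTT_691 or IR.fl_GTT_699. Of 15 pericentral hepatocyte genes 2 rose, the ammonium transporter Rhbg (1.19 ± 0.30) and the Wnt target Lgr5 (1.20 ± 0.33), and 2 fell, Cyp27a1 and Cyp1a2 (-1.42 ± 0.40). Rhbg, Lgr5 and Cyp1a2 each lost the call without IR.KO_GTT_667 or IR.KO_GTT_690, among others, and without IR.fl_GTT_659, 3 of the list rose and 1 fell. Of 17 drug-metabolizing Cyp2c and Cyp3a genes Cyp2c70 fell (-1.89 ± 0.51). Of 18 Nrf2 targets, genes of the response to oxidants, 3 rose and 0 fell, Osgin1 (1.64 ± 0.47), Txnrd1 (0.67 ± 0.18) and Nqo1 (0.49 ± 0.15), with 1 lower at an unadjusted p under 0.05, and 2 rose without IR.fl_GTT_659. Of 20 ATF4 stress genes Psat1 of serine synthesis rose (1.67 ± 0.32) and Cth fell. Of 20 immediate early genes Ier3 (0.90 ± 0.22) and Klf6 (0.96 ± 0.22) rose and 0 fell, with 1 lower at an unadjusted p under 0.05, against 9 rises in fasted livers (7 without IR.fl_Fast_486). Of 17 clock genes Cry2 fell (-0.88 ± 0.26), with overlapping groups and a second bright probe of the other sign, and of 11 replication histone genes H3c15, H2bc4 and H2bc8 fell by 1.90, 0.66 and 0.21.

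Markers of other cell types mostly did not pass. Of 11 endothelial genes Pecam1, Cdh5 and Egfl7 rose by 0.32, 0.48 and 0.82, and 1 of the 3 was called without IR.fl_GTT_659. At an unadjusted p under 0.05 in limma, 5 endothelial genes were higher and 0 lower, against 20.3% of all genes in either direction. By the same measure 5 of 12 Kupffer cell and macrophage genes were higher and 0 lower, and 6 of 10 hepatocyte genes were lower and 0 higher. The part of these shifts in other results was not tested. Of 6 cholangiocyte genes Sox9 fell (-0.86), of 9 neutrophil genes Ly6g fell (-0.62), and of 7 B cell genes Jchain rose (0.83), a call lost without IR.fl_GTT_659 (adjusted p = 0.0858) and without each of 4 other mice. In limma 0 of 12 stellate cell and fibroblast, 9 T and NK cell, 3 erythroid, 23 acinar, 7 islet, 7 adipocyte and 6 skeletal muscle genes passed, and at an unadjusted p under 0.05 there was 1 of the stellate list and 0 of the others.

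The share of called members differed widely between the 30 lists, from 0 of 20 ribosome biogenesis genes and 0 of 10 heat shock genes in limma, with 4 and 0 at an unadjusted p under 0.05, to 9 of 16 male-biased genes, against 8.3% of all genes. A list of 20 genes with 1 or 2 calls lies near that background. No list was tested as a set, and genes of a list share regulators and are not independent.

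**Figure D4:**
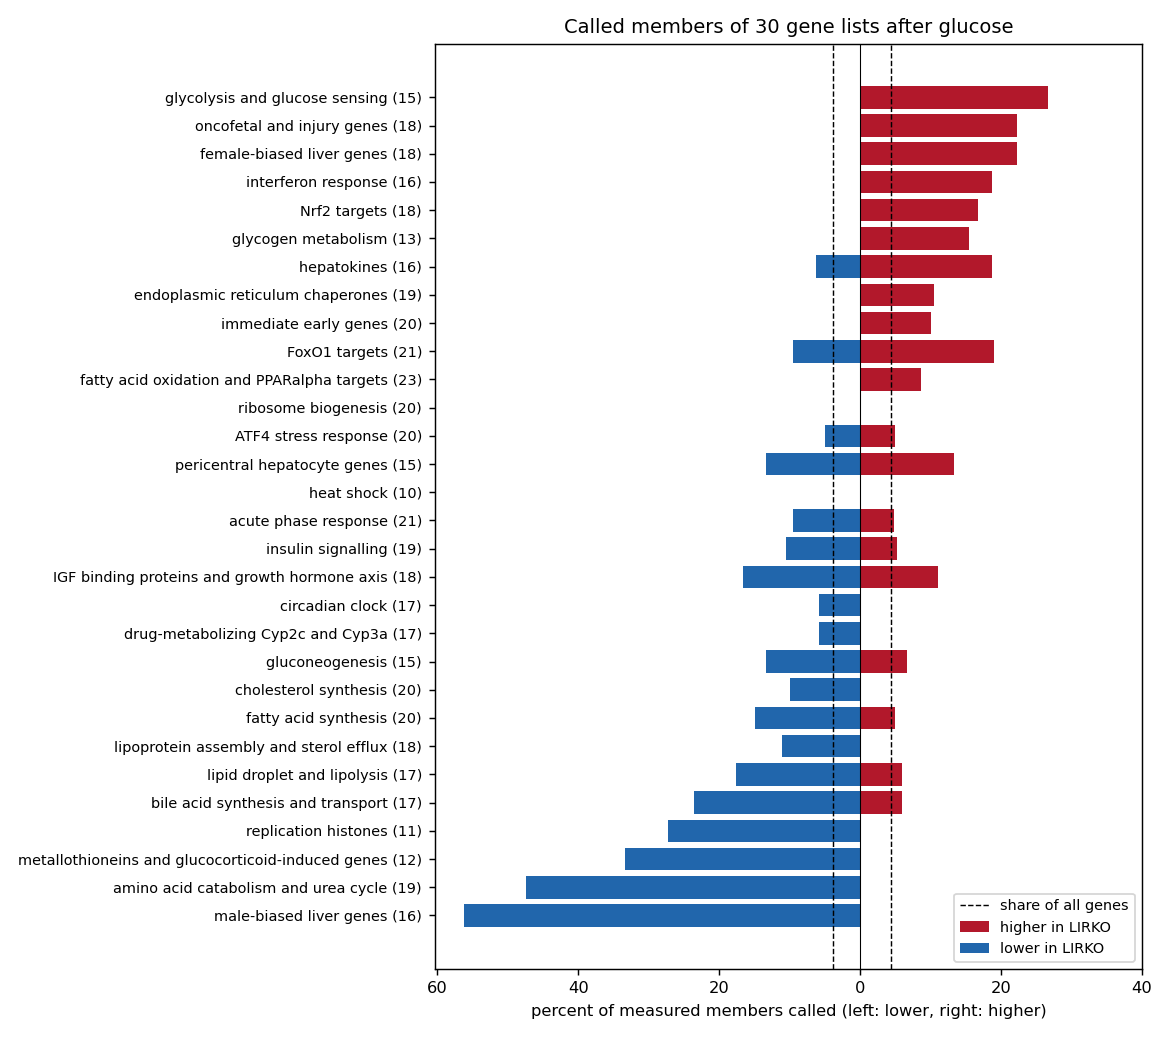
Percent of measured members of each of 30 gene lists (the number measured in brackets) that were called higher in LIRKO glucose livers (right, red) or lower (left, blue), with dashed lines at the share of all genes, 4.38% higher and 3.92% lower. Male-biased genes and amino acid genes extend furthest to the left, and glucose sensing, oncofetal and female-biased genes furthest to the right.

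Receptor loss was also measured in fasted livers, where 1811 genes were called (930, 4.14%, higher and 881, 3.92%, lower), and in refed livers, where 2609 were (1562, 6.95%, higher and 1047, 4.66%, lower). Without IR.fl_Fast_486, which had high acinar genes, the fasted count was 1178 (5.24%), and it was 1040 without IR.KO_Fast_550 and 1089 without IR.KO_Fast_505. The refed count was 1724 without IR.KO_Refed_553 and 1735 without IR.fl_Refed_562. Of the 1866 genes called after glucose, 784 were also called in fasted livers, all in the same direction, which is 42.0% of the glucose calls and 43.3% of the fasted calls. With refed livers 860 were shared, 850 in the same direction and 10 in the opposite one (46.1% of the glucose calls and 33.0% of the refed calls), and 584 genes were called in all 3 states. Without IR.fl_GTT_659 and IR.fl_Fast_486, each left out of its own comparison, a setting chosen after seeing the data, 438 genes were shared with fasted livers, 437 in the same direction (26.3% of the glucose calls and 37.2% of the fasted calls), and 350 were called in all 3 states. With refed livers 653 were shared without IR.fl_GTT_659, 639 in the same direction (39.1% of the glucose calls and 25.0% of the refed calls). These comparisons use different mice. Igf1 differed by -2.45 after glucose, -2.41 fasted and -2.74 refed, Scd1 by -2.72, -2.49 and -2.64, and H19 by 3.93, 3.36 and 4.05, each called in every state, also in fasted livers without IR.fl_Fast_486.

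Another group of genes was called after glucose and had smaller differences elsewhere. Cps1 differed by -1.47 after glucose, against -0.24 fasted (0.037 without IR.fl_Fast_486) and -0.14 refed, and Arg1 by -1.47, against -0.30 and -0.83. Amino acid genes as a list held 9 falls after glucose, against 5 fasted (1 without IR.fl_Fast_486) and 2 falls with 1 rise refed. G6pc was higher by 2.18 after glucose and 1.62 refed, and had -0.56 fasted (adjusted p = 0.57; -0.12 without IR.fl_Fast_486). Plin5 had -1.50 after glucose, -0.22 fasted (-0.058 without IR.fl_Fast_486) and 0.14 refed. In all, 806 genes were called after glucose and in neither other state (927 without the 2 acinar livers), but a call in one state and not another is no test of a difference. When the glucose effect was set against the fasted effect in the same fit, 0 genes passed in limma (lowest adjusted p = 0.258), with 1541 (6.86%) at an unadjusted p under 0.05. For G6pc this difference between effects was 2.73 (unadjusted p = 0.000295, adjusted p = 0.353), for Irs2 1.56 (unadjusted p = 0.000803, adjusted p = 0.439) and for Cps1 -1.23 (unadjusted p = 0.0167, adjusted p = 0.6). Without IR.fl_GTT_659, 48 genes passed in limma, 20 with a more positive and 28 with a more negative effect after glucose. Hilpda (-1.20) and Tnfrsf12a of the injury list (-1.78) were among the 48, while G6pc, Irs2, Cps1, Arg1 and Plin5 were not. Without IR.fl_Fast_486, 0 genes passed in limma.

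Against the refed effect, 134 genes differed (0.596%), 57 with a more positive and 77 with a more negative effect after glucose. In limma 0 of the 19 amino acid genes and 0 of the 21 FoxO1 targets were among them. Of the 17 lipid droplet genes only Cidec was, so Cps1, Arg1, G6pc and Plin5 did not pass against the refed effect. B4galnt1, a ganglioside synthase, had -2.48 after glucose (adjusted p = 0.0827) and 3.07 refed, a difference of -5.55. Cidec, which fuses lipid droplets, had -0.12 after glucose and 3.09 refed, a difference of -3.21, and its 2 probes gave differences of plain means of 0.047 and -0.48 after glucose. Inhba, an activin subunit, had 8.18, 8.76 and 7.63 in LIRKO glucose livers and 6.81, 7.60 and 6.66 in IR floxed glucose livers (1.21 ± 0.23, adjusted p = 0.00133), and -0.40 refed, a difference of 1.61. Asic5, an ion channel, had 8.08, 8.11 and 7.78 in LIRKO glucose livers and 11.45, 10.54 and 10.52 in IR floxed glucose livers (-2.69 ± 0.39), and -0.53 refed, a difference of -2.16. Asic5 and Inhba stood apart without overlap after glucose and kept the call of the glucose comparison whichever of its mice was left out. The count of 134 was 1 without IR.KO_GTT_690, 7 without IR.fl_GTT_691, 22 without IR.fl_GTT_699, 435 without IR.fl_GTT_659 and 449 without IR.KO_GTT_697. With 1 refed liver left out, it was 6 without IR.fl_Refed_508, 37 without IR.KO_Refed_558, 68 without IR.KO_Refed_565, 84 without IR.fl_Refed_562 and 311 without IR.fl_Refed_566.

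**Figure D5:**
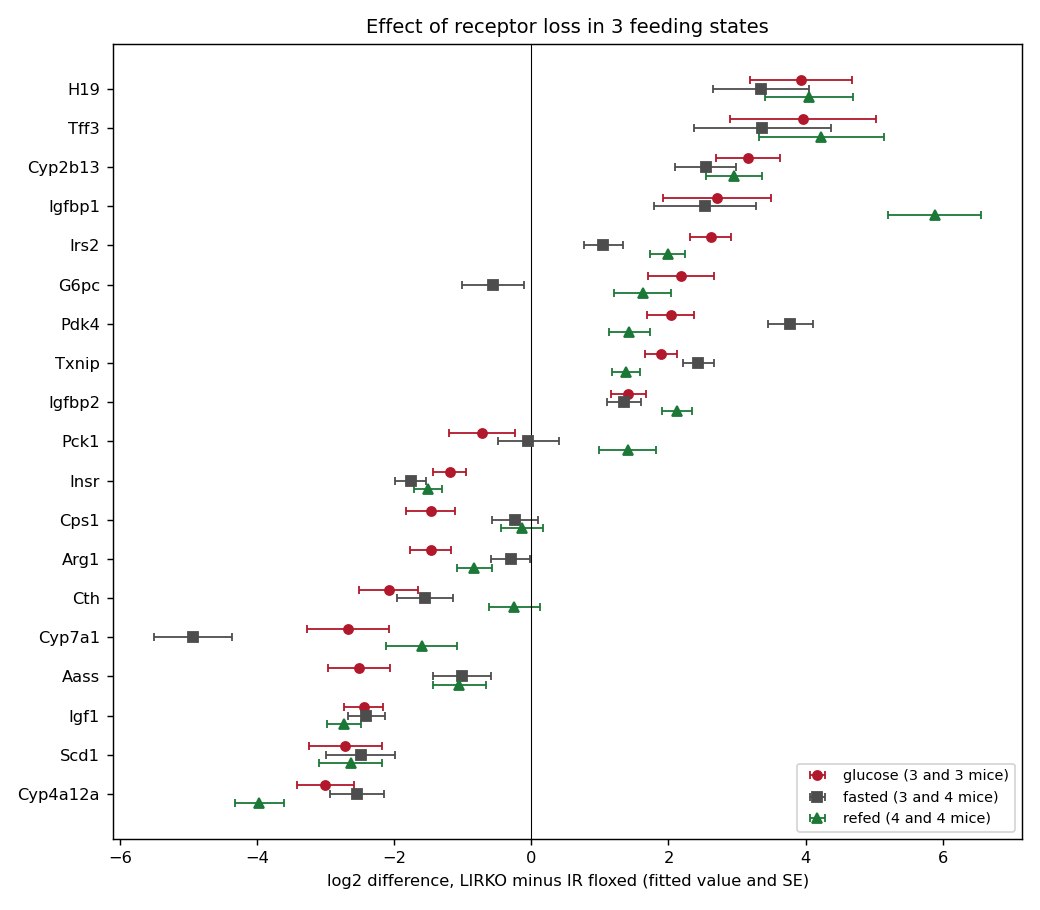
Fitted log2 difference, LIRKO minus IR floxed, with its SE (x axis) for 19 genes after glucose (circles), fasted (squares) and refed (triangles). Igf1, Scd1 and H19 lie close together in the 3 states, Cps1 lies lower after glucose, and G6pc lies above 0 after glucose and refed.

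In the LIRFKO glucose livers, given as levels without a test, Irs2 had 10.17, 11.01 and 10.35, G6pc 11.31, 11.94 and 12.09, Txnip 8.64, 8.34 and 8.28 and Igf1 14.12, 13.59 and 13.70, and each mean lies nearer to the IR floxed than to the LIRKO mean. Cps1, with 12.44, 12.25 and 11.65, lay within the LIRKO range, but 12.44 and 12.25 also lay within the IR floxed range, which overlaps it. Tdo2 had 11.94, 11.17 and 10.95, of which 11.17 and 10.95 lay within the LIRKO range and 11.94 between the 2 groups. Igfbp1 was split, at 9.20, 14.04 and 13.92. No floxed control of the LIRFKO line was measured after glucose, so these levels are set against floxed mice of the other line. The liver titled IRF.KO_GTT_724 had conflicting treatment labels and is not among them.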

How the data were processed

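Liver RNA was labelled with one of 2 dyes, and each dye channel of an Agilent array is a sample of its own per the labels. The log2 intensities were used as deposited (45220 features, values from 5.07 to 16.0, column medians from 5.72 to 5.78); per the submitters' processing notes R 3.1.0 and limma 3.20.1 were used, while neither background correction nor normalization is given in the sources used here. Detection and saturation flags were not used here.

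Of the features 33026 named 1 gene through the platform annotation, 0 named several and 12194 none. Symbols were updated through RefSeq (GRCm38.p6), and the probe with the highest mean over all columns stood for each of 22479 genes. The model had a mean for each of 11 groups over 37 samples, a dye term, and the array as a random block whose consensus correlation was 0.358 (limma 3.58.1, statmod 1.5.0, R 4.3.3). Spread thus comes from all groups. Errors are SE of the fit, and p was adjusted by Benjamini-Hochberg over all genes at 0.05. The fit was run on data simulated from the fitted model with seeded changes. Such data hold the model's own assumptions, so the run checks the code and not those assumptions. Mice were separate animals by number. 1 sample with conflicting treatment labels was left out. The array set is the number that opens the name of the raw file.

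Genes were named by rule: the 12 largest rises and 12 largest falls among called genes without overlap and above the median level (predicted gene models passed over), up to 4 members of smallest p per pathway list, 14 key genes, of which 13 were measured, and 5 genes per direction for each difference between states; other members are named as called. Comparisons, alternatives, members, lists and motifs were chosen with earlier results of these data known. Lists (30 of pathways, 13 of cell types) held 645 genes, of which 596 were measured. Promoters are those of RefSeq. The alternatives tried were other terms in the fit, probe means, a filter on level, another normalization and each mouse left out.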

Additional observations from a re-analysis of the deposited data

Results flagged for a closer look

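In 39 gene and group combinations of 4 samples, 1 sample stood far from the other 3 in 3 cases. By chance about 1 in 20 combinations would do so, and 3 of 39 is near that number. The 3 cases were Foxo1 in IR.fl_Fast_491 (9.98), Pck1 in IR.KO_Refed_553 (14.43) and Igf1 in IR.fl_Refed_566 (12.97). The glucose groups held 3 samples each, so no glucose liver was among those checked.

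In the test of the difference between glucose and refed livers, the effect of receptor loss was called different for the 10 genes named by rule. It was more negative after glucose for B4galnt1 (-5.55), Slc16a5 (-3.22), a monocarboxylate transporter gene, Cidec (-3.21), Asic5 (-2.16) and the predicted gene Gm5640 (-1.55). It was more positive for Nat8f5 (2.21), B3galt1 (2.18), Pdilt (2.01), Cyp2j9 (1.70) and Inhba (1.61). After glucose alone, Asic5, Nat8f5, Slc16a5, Cyp2j9 and Inhba were called. The count of all genes with a called difference, 134, was 1 without IR.KO_GTT_690, 1 without the array block and 0 in a fit of the groups compared. Most of the 10 calls of a difference were thus lost in each of these fits.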

How the results depend on the processing

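Of the 5 counts tested, the glucose count of 1866 moved by over 1.5 times to 1219 without the array block and to 5 in a fit of the 6 livers alone, where 2035 genes had an unadjusted p under 0.05; the 5 were Igf2bp3, 1810064F22Rik, Slc10a2, Csrp3 and Krt80, given after their values were seen. It was 1847 with array set as a block, and 912 to 1927 with 1 mouse left out. The fasted count of 1811 was 233 and the refed count of 2609 was 1539 in fits of their own groups, and 1040 to 1600 (1178 without IR.fl_Fast_486, with high acinar genes) and 1724 to 2965 with 1 mouse left out. The count for glucose minus refed, 134, was 40 without the dye term, 1 without the array block, 209 with array set as a block, 0 in a fit of its own groups and 1 to 449 with 1 mouse left out; that for glucose minus fasted was 0 in all alternatives but the one without IR.fl_GTT_659 (48), so 0 to 48. Srebf1 after glucose was -0.14, turned to 0.032 without IR.fl_GTT_659 and ran from -0.37 to 0.032 with 1 mouse left out. Of 100 named genes called after glucose, 54 kept the call whichever of the 6 mice was left out and 95 with array set as a block. No paired analysis was possible by mouse number because the groups share none; array, which 1 glucose pair shared, was a block in the model used throughout. Detection and saturation were not used here, so differences that rest on values near the low end (Cyp2b13, Slc10a2, H19) or the top (Mt2) are given as measured and can be too small; Igfbp1 alone is given as a bound.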
